A study of Homo sapiens with 8 samples.

Results

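The UGT2B glucuronosyltransferases are a family of enzymes encoded by neighbouring genes on chromosome 4. The 7 members described here, UGT2B4, UGT2B7, UGT2B10, UGT2B11, UGT2B15, UGT2B17 and UGT2B28, were found by their symbols in an RNA-seq table of 57603 genes. All 7 were present, and 6 of them averaged 10 normalized counts or more over the 8 libraries, the minimum for testing, which 17876 genes reached. UGT2B28, with a mean of 9.49, fell just under it, and UGT2B7 and UGT2B17 reached it through the HNF4G-DMSO libraries, since their means over the other 3 groups were 6.66 and 7.30.

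The RNA was that of 22Rv1, a human prostate cancer line known to grow without testicular androgen and to carry gut and liver RNAs, with a transgene for GFP (the control) or for HNF4G. HNF4G is a nuclear receptor that the study describes as restricted to the gastrointestinal lineage. The transgene was driven by a retroviral promoter (that of murine stem cell virus), which the study describes as one the drug does not repress. For 24 hours both lines were kept in DMSO or in 25 nM ABBV-075, also called mivebresib, which blocks BET proteins, readers of acetylated histones that promote transcription. The 4 groups, named by transgene and treatment as GFP-DMSO or HNF4G-ABBV-075, for example, held 2 libraries each. A normalized count is the number of reads of a gene divided by 1 size factor per library. The libraries held 31508275 to 40262678 reads, and since the labels do not tell whether a pair of libraries was grown apart, the p-values reflect the spread between these libraries alone, possibly a technical one. With 2 libraries a group, spread was estimated over all 4 groups together.

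UGT2B enzymes sit in the membrane of the endoplasmic reticulum and attach glucuronic acid, taken from UDP-glucuronate, to small lipophilic molecules, which makes them soluble and ready for export. In the prostate, UGT2B15 and UGT2B17 are known as the enzymes that inactivate dihydrotestosterone and its metabolites, and UGT2B28 also acts on androgens. UGT2B7 conjugates opioids, bile acids and oestrogens, UGT2B4 bile acids and UGT2B10 tertiary amines such as nicotine, while few substrates are known for UGT2B11. In liver the family is known to be driven by FOXA and nuclear receptor factors, among others, and in prostate cells androgen is known to lower UGT2B15 and UGT2B17.

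On hg38 the 7 genes lay within 988.842 kb, chr4:68537173-69526014. From the lower coordinate they were UGT2B17 (68537173 to 68576413, minus strand), UGT2B15 (68646597 to 68670652, minus strand), UGT2B10 (68815994 to 68832023, plus strand), UGT2B7 (69051363 to 69112987, plus strand), UGT2B11 (69199951 to 69214748, minus strand), UGT2B28 (69280475 to 69295050, plus strand) and UGT2B4 (69480165 to 69526014, minus strand). Each was represented by its longest GENCODE 44 transcript, of 6 exons in each case but UGT2B17, which has 7, with a coding sequence of 1584 to 1590 bases.

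The coding sequences were close enough for short reads to be shared. In pairwise global alignments the bases were identical at 97.0% of columns for UGT2B11 and UGT2B28 and at 96.5% for UGT2B15 and UGT2B17, while the remaining pairs ranged from 83.7% to 94.8%. The start of the coding sequence, 120 bases from the start codon on the sense strand of each gene, shows how few bases tell each close pair apart. Capitals mark the bases that differ within a pair, of which there are 5 in the first pair and 7 in the second.
UGT2B15: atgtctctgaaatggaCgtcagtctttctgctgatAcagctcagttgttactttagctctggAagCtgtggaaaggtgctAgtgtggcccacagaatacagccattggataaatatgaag
UGT2B17: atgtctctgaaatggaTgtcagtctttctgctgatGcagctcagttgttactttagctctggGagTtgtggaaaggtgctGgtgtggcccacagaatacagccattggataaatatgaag
UGT2B11: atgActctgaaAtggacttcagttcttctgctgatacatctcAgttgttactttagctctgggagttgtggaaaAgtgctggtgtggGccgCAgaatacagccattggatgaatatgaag
UGT2B28: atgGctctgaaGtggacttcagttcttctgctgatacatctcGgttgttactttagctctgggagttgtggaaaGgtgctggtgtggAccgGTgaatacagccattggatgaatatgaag

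Reads were 100 bases long and paired. Of the 100-base windows of the UGT2B15 transcript, 12.4% occurred exactly in a transcript of another gene, and UGT2B17 was that gene for all of them. The share was 10.6% for UGT2B17, 4.55% for UGT2B10, 5.63% for UGT2B28 and 18.1% for UGT2B11, and no window of UGT2B4 or UGT2B7 was shared. For UGT2B11 most shared windows, 240 of 363, lay in ENSG00000250696, an annotated non-coding gene on the other strand across the same place, which had a mean of 1.08 normalized counts. How reads with more than 1 match were counted is not given in the sources used here, so the values of UGT2B17 and UGT2B28, which are low beside a close relative with more reads, are uncertain. UGT2B11 had the largest share of shared windows (18.1%), but most of them lay in the gene across it on the other strand. Its values are uncertain too, since the strand setting used in counting is not given and the rest of these windows matched other genes.

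Promoter sequences were held for 4 members, as 300-base windows around the start site (RefSeq, GRCh38.p14), and are shown for all 4. UGT2B10, UGT2B11 and UGT2B15 fell under ABBV-075 in both lines, as did UGT2B4, for which none was held. UGT2B7 is not an unchanged gene beside them, since its log2 changes were -1.93 in GFP and -3.33 in HNF4G cells, on few reads. In UGT2B10, UGT2B11 and UGT2B15, capitals mark the longest run that the 3 promoters share, 18 bases lying from 55 to 38 bases before the start site in UGT2B10 and UGT2B11 and from 56 to 39 bases before it in UGT2B15. In UGT2B7 they mark the longest run shared by all 4, of 12 bases. The windows are chr4:68670603-68670902 on the minus strand for UGT2B15, chr4:68815744-68816043 on the plus strand for UGT2B10, chr4:69214699-69214998 on the minus strand for UGT2B11 and chr4:69096224-69096523 on the plus strand for UGT2B7, whose RefSeq start lies inside the gene's span given above.
UGT2B15: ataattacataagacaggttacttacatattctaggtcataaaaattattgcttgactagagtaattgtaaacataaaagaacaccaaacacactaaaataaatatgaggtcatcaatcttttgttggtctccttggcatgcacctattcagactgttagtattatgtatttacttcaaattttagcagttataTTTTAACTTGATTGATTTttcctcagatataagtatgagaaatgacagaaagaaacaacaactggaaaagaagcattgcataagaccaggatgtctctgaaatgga
UGT2B10: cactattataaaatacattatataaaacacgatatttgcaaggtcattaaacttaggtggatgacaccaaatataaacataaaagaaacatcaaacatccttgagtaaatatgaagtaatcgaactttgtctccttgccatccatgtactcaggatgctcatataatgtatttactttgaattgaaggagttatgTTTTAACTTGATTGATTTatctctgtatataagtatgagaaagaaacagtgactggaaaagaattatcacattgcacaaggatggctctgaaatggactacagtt
UGT2B11: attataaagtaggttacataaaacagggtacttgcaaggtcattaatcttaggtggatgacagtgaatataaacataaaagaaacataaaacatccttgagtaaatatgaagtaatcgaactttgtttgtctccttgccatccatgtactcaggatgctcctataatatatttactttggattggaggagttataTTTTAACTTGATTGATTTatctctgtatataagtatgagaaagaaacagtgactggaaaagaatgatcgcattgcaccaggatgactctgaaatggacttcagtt
UGT2B7: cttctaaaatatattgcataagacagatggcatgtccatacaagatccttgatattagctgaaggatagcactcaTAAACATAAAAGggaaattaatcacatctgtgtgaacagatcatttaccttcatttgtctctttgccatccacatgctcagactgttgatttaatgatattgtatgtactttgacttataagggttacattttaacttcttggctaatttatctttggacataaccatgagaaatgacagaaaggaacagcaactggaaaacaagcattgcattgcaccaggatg

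The 18-base run was found in these 3 of 35116 promoters of the same length (0.00854%), and the 12-base run in 6 (0.0171%), on either strand. Both runs were picked as shared by these promoters, so their presence in them was given in advance. A part of either run in the response to ABBV-075 was not tested. The promoters of UGT2B10 and UGT2B11 were identical at 90.1% of aligned columns, while the other pairs ranged from 60.4% to 69.5%. Of 2 motifs searched on both strands, AAAGTCC, a core of the HNF4 site, which 3.71% of all promoters held, was found in none of the 4. TGTTTAC, a FOXA motif held by 3.42% of promoters, had 1 match, in UGT2B15, which begins 183 bases before the start site, and a match or its absence is a description of these windows.

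**Figure D1:**
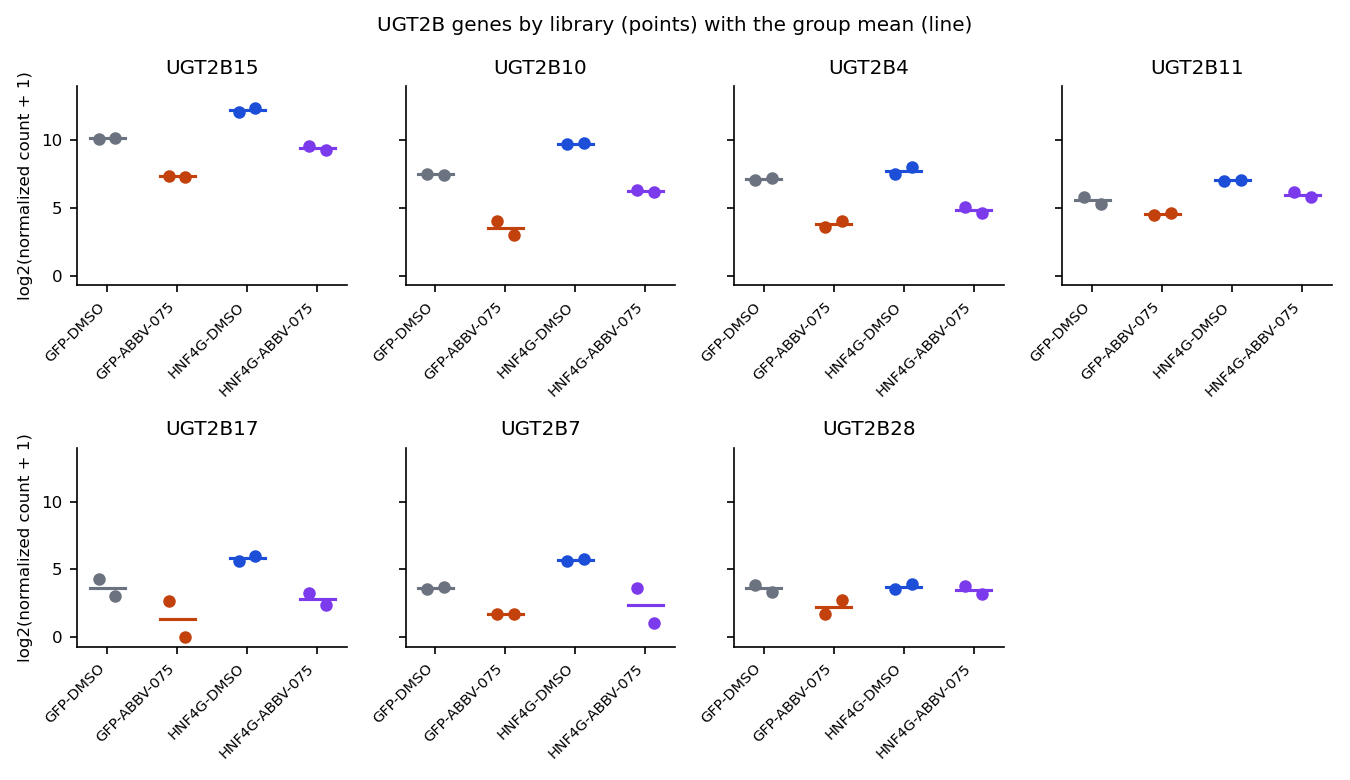
Log2(normalized count + 1) of each UGT2B gene (vertical axis) in each library (points), by group (horizontal axis), with the group mean as a line. UGT2B15 was the highest in every library, from 158 to 5190 normalized counts, and UGT2B28 stayed between 2.20 and 13.8.

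UGT2B15 was by far the main member in every library. Its normalized counts were 1074 and 1169 with DMSO and 161 and 158 with ABBV-075 in GFP cells, and 4334 and 5190 with DMSO and 758 and 625 with ABBV-075 in HNF4G cells. No 2 groups overlapped, and the order of groups was HNF4G-DMSO, GFP-DMSO, HNF4G-ABBV-075 and GFP-ABBV-075. Its mean over the 8 libraries was above that of 72.2% of the tested genes.

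UGT2B10 followed the same order of groups from a lower level. It had 184 and 169.7 normalized counts with DMSO and 15.4 and 6.92 with ABBV-075 in GFP cells, and 826 and 897 with DMSO and 79.6 and 73.1 with ABBV-075 in HNF4G cells, again with no overlap between groups. UGT2B4 had 135 and 149.5 with DMSO and 11.0 and 15.0 with ABBV-075 in GFP cells, and 182 and 255 with DMSO and 32.0 and 23.7 with ABBV-075 in HNF4G cells. Its DMSO groups stood closer together than those of UGT2B10 and UGT2B15.

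UGT2B11 had a narrower range than these 3 genes. It had 55.2 and 38.4 normalized counts with DMSO and 20.9 and 23.1 with ABBV-075 in GFP cells, and 127 and 134 with DMSO and 71.8 and 54.5 with ABBV-075 in HNF4G cells. It was the tested member whose HNF4G-ABBV-075 mean (63.2 ± 12.2, SD, n = 2) was above its GFP-DMSO mean (46.8 ± 11.9, SD, n = 2), although those libraries overlapped.

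The 3 remaining members rested on few reads. UGT2B17, the close relative of UGT2B15, had 18.4 and 7.07 normalized counts with DMSO and 5.51 and 0 with ABBV-075 in GFP cells, and 48.5 and 64.0 with DMSO and 8.74 and 4.12 with ABBV-075 in HNF4G cells. The 0 in GFP-ABBV-075 number 2 allows a level of up to 3.46 normalized counts, the worth of 3 reads, counting error only. UGT2B7 had 10.6 and 12.1 with DMSO and 2.20 and 2.31 with ABBV-075 in GFP cells, and 47.5 and 52.7 with DMSO and 11.6 and 1.03 with ABBV-075 in HNF4G cells. For both genes the HNF4G-DMSO libraries stood above all others. UGT2B28 had 13.5 and 9.09, 2.20 and 5.77, 10.7 and 13.8, and 12.6 and 8.23 in the same order of groups, and GFP-ABBV-075, with 7 reads in all, was the group that did not overlap the others.

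Per kilobase of the longest transcript, which allows members to be compared, UGT2B15 came first in GFP-DMSO with 526 ± 31.3 (SD, n = 2 for each of these means), ahead of UGT2B4 with 67.9 ± 4.72 and UGT2B10 with 64.1 ± 3.63, which did not differ beyond their spread. UGT2B11 followed with 22.2 ± 5.64. UGT2B28 (6.10 ± 1.70), UGT2B7 (6.03 ± 0.553) and UGT2B17 (5.13 ± 3.23) stood within each other's spread at the foot. In HNF4G-DMSO the order was UGT2B15 (2232 ± 284), UGT2B10 (313 ± 18.2), UGT2B4 (104 ± 24.5) and UGT2B11 (62.0 ± 2.33), then UGT2B7 (26.5 ± 1.95) and UGT2B17 (22.7 ± 4.41), which did not differ beyond their spread, and UGT2B28 last (6.60 ± 1.20). Under ABBV-075 UGT2B11 took the place after UGT2B15, with 10.5 ± 0.718 in GFP cells and 30.0 ± 5.80 in HNF4G cells. In HNF4G-ABBV-075 it did not differ beyond its spread from UGT2B10 (27.7 ± 1.67), and its place there depended on the length used. Per kilobase of the merged exons of all transcripts, UGT2B10 made up 6.96% of the family in that group and UGT2B11 6.67%. Per kilobase of coding sequence they made up 8.74% and 7.15%.

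Under ABBV-075 the family fell in GFP cells. UGT2B15, the dihydrotestosterone-conjugating enzyme, had a log2 change of -2.81 (SE 0.14, adjusted p = 2.15e-05), UGT2B10 of -3.96 (SE 0.30, adjusted p = 0.000102), UGT2B4 of -3.37 (SE 0.26, adjusted p = 0.000102) and UGT2B11 of -1.03 (SE 0.24, adjusted p = 0.0129), from limma with Benjamini-Hochberg adjustment over all 17876 genes. Thus 4 of 6 tested members fell and none rose, where 19.2% of all tested genes were called lower and 14.2% higher. The median change of the 6 was -2.55, that of all tested genes -0.01. As ratios of group means, UGT2B10 was 15.8-fold lower, UGT2B4 11.0-fold and UGT2B15 7.03-fold. Only 26 of the tested genes had a lower log2 change than UGT2B10. In bulk RNA, fewer expressing cells and less RNA per cell cannot be told apart.

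The low members did not pass the threshold in this comparison. UGT2B17 had a log2 change of -2.29 (SE 0.85, adjusted p = 0.0735) and UGT2B7 of -1.93 (SE 0.74, adjusted p = 0.0819). UGT2B28, fitted without a filter over 35751 genes, had -1.38 (SE 0.50, adjusted p = 0.116). The call of UGT2B11 was lost without GFP-DMSO number 1 (adjusted p = 0.0938), GFP-ABBV-075 number 1 (0.0777) or GFP-ABBV-075 number 2 (0.0547). UGT2B7 was called without HNF4G-ABBV-075 number 1 (0.00525) or number 2 (0.00301), which changes only the shared spread, and UGT2B17 without GFP-ABBV-075 number 1 (0.0133). Both were called with only the libraries compared (0.00934 and 0.0258) and with the correction for GC content and length (0.0335 and 0.0374). Calls of UGT2B4, UGT2B10 and UGT2B15 were kept in every alternative, setting aside that without the 2 libraries lowest in GC content, whose calls are not used.

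**Figure D2:**
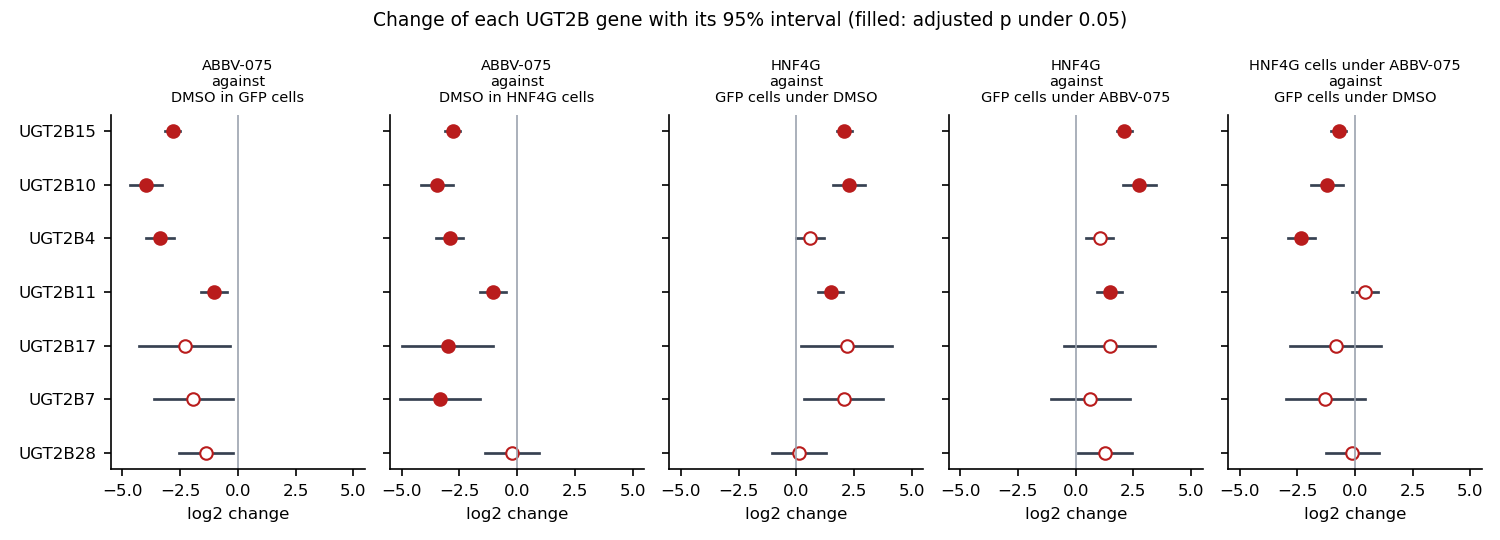
Log2 change of each UGT2B gene (points, horizontal axis) with its 95% interval (lines) in 5 comparisons, filled where the adjusted p was under 0.05, which for UGT2B7 and UGT2B17 in HNF4G cells is a description, since their high group let them be tested. The points of both panels of ABBV-075 against DMSO lie left of 0 and those of both panels of HNF4G against GFP right of it, while several intervals cross 0, and UGT2B15 lies at -2.81, -2.78, 2.08, 2.10 and -0.70 from left to right.

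In HNF4G cells, too, ABBV-075 lowered UGT2B10, UGT2B4, UGT2B15 and UGT2B11, the 4 members that reach the minimum for testing without the HNF4G-DMSO libraries. The log2 change was -3.48 for UGT2B10 (SE 0.30, adjusted p = 0.000208), -2.92 for UGT2B4 (SE 0.26, adjusted p = 0.000213), -2.78 for UGT2B15 (SE 0.14, adjusted p = 2.81e-05) and -1.05 for UGT2B11 (SE 0.24, adjusted p = 0.0130). All tested genes were called lower in 18.3% of cases and higher in 12.9%, with a median change of 0.02 against -2.85 for these 4. UGT2B7, with -3.33 (SE 0.74, adjusted p = 0.0118), and UGT2B17, with -3.01 (SE 0.85, adjusted p = 0.0307), were tested only through HNF4G-DMSO, the group in which they were high, so that they had to differ here and their values are a description. UGT2B28 had a log2 change of -0.23 in the unfiltered fit (95% interval -1.39 to 0.93). Without HNF4G-DMSO number 2, 3 members were called instead of 6, since UGT2B7 (adjusted p = 0.0502), UGT2B11 (0.0611) and UGT2B17 (0.110) passed the threshold no longer, and UGT2B17 was also lost without HNF4G-DMSO number 1 (0.0720), without HNF4G-ABBV-075 number 2 (0.0914), with a pseudocount of 0.5 (0.0587), with no filter (0.0597) and with no intensity trend (0.0517). The change of UGT2B7 was -4.65 without HNF4G-ABBV-075 number 1 and -2.01 without number 2, which hold 11.6 and 1.03 normalized counts.

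The HNF4G line had more UGT2B RNA than the GFP line. Under DMSO UGT2B10 was higher by a log2 change of 2.28 (SE 0.30, adjusted p = 0.0158), UGT2B15 by 2.08 (SE 0.14, adjusted p = 0.000998) and UGT2B11 by 1.48 (SE 0.24, adjusted p = 0.0359). These are 3 of the 4 members that reach the minimum without HNF4G-DMSO, where 0.783% of all tested genes were called higher and 0.117% lower. UGT2B17 (2.18, SE 0.85) and UGT2B7 (2.05, SE 0.74), tested through that group, had few reads, with adjusted p = 0.372 and 0.341. UGT2B4, with 0.60 (SE 0.26, adjusted p = 0.410), was the tested member with the lowest value. Without any 1 of the 4 libraries compared, UGT2B15 alone was called, with UGT2B10 at adjusted p = 0.0766 to 0.187 and UGT2B11 at 0.107 to 0.276. UGT2B11 was also lost without GFP-ABBV-075 number 1 (0.0798) or number 2 (0.0810), with no filter (0.0937), with quantile normalization (0.0556) and with no intensity trend (0.0517), and UGT2B7 was called without HNF4G-ABBV-075 number 1 (0.0452) or number 2 (0.0286).

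Under ABBV-075 the same 3 members were higher in HNF4G cells. UGT2B10 was higher by 2.76 (SE 0.30, adjusted p = 0.00411), UGT2B15 by 2.10 (SE 0.14, adjusted p = 0.000385) and UGT2B11 by 1.47 (SE 0.24, adjusted p = 0.0239) on the log2 scale, where 1.64% of all tested genes were called higher and 0.336% lower. UGT2B4 had 1.04 (SE 0.26, adjusted p = 0.108), UGT2B17 1.47 (SE 0.85, adjusted p = 0.470), UGT2B7 0.64 (SE 0.74, adjusted p = 0.711) and, unfiltered, UGT2B28 1.27 (SE 0.50, adjusted p = 0.406). The call of UGT2B11 was lost without GFP-ABBV-075 number 1 (0.187) or number 2 (0.139), without HNF4G-ABBV-075 number 1 (0.0931), with no filter (0.0607) and with only the libraries compared (0.0874), UGT2B4 was called with the correction for GC content and length (0.0160), and UGT2B7 was called without HNF4G-ABBV-075 number 2 (0.0481). This comparison and those before it share libraries pairwise, so their values are not separate evidence.

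The content of G and C in the reads was 46.3% in HNF4G-DMSO number 2 and HNF4G-ABBV-075 number 1 and 47.4% to 47.9% in the other 6 libraries, and these 2 libraries held the higher UGT2B15 value of their groups. UGT2B transcripts hold 37.4% to 40.7% G and C, against a median of 47.7% for tested genes. Without these 2 libraries the change of UGT2B15 between lines was 1.95 under DMSO and 1.96 under ABBV-075. This leaves 1 library in each HNF4G group, which is assumed to vary as the GFP libraries do, so its calls are not used. The part of base composition in the other results was tested by a correction for GC content and length, under which UGT2B15 changed by 2.00 and 2.07. That correction moved the balance of all calls, from 3432 lower and 2534 higher to 4308 and 5897 under the drug in GFP cells, from 3271 and 2304 to 4185 and 5843 in HNF4G cells, from 21 and 140 to 896 and 645 between lines under DMSO, from 60 and 293 to 1555 and 1051 under ABBV-075, and from 3354 and 2865 to 4553 and 5492 between HNF4G-ABBV-075 and GFP-DMSO.

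HNF4G cells under ABBV-075 were then set against untreated GFP cells, to see how far the level of the control line was reached with the drug present. UGT2B4 stayed lower with a log2 change of -2.33 (SE 0.26, adjusted p = 0.000521), UGT2B10 with -1.20 (SE 0.30, adjusted p = 0.0179) and UGT2B15 with -0.70 (SE 0.14, adjusted p = 0.00689), 3 of 6 tested members, where 18.8% of all tested genes were called lower and 16.0% higher. As shares of the GFP-DMSO mean, UGT2B15 stood at 61.6%, UGT2B10 at 43.2% and UGT2B4 at 19.5%. UGT2B11 stood at 135% with a log2 change of 0.44 (95% interval -0.12 to 0.99). UGT2B7 had -1.29 (interval -3.00 to 0.43) and UGT2B17 -0.83 (interval -2.80 to 1.15). The call of UGT2B15 was lost without GFP-DMSO number 2 (adjusted p = 0.0601) and that of UGT2B10 without GFP-DMSO number 1 (0.104) or number 2 (0.0745), which left 1 member called without number 2, and UGT2B7 was called without HNF4G-ABBV-075 number 1 (-2.61, adjusted p = 0.00495).

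No member was called for a different response to ABBV-075 in the 2 lines. The difference of the 2 log2 changes was 0.02 for UGT2B15 (SE 0.20, 95% interval -0.44 to 0.48), -0.01 for UGT2B11 (interval -0.79 to 0.77), 0.45 for UGT2B4 (interval -0.39 to 1.28) and 0.48 for UGT2B10 (interval -0.51 to 1.47). For UGT2B7 and UGT2B17 the intervals spanned -3.84 to 1.02 and -3.50 to 2.08. By limma 0 members were called and 0 had an unadjusted p under 0.05, and edgeR and DESeq2 on the recovered reads also called 0. Of all tested genes, 0.0112% were called higher (2 genes, HNF4G among them) and 0% lower. UGT2B28, in the unfiltered fit, had 1.15 (interval -0.50 to 2.79). The intervals for UGT2B15 and UGT2B11 leave out a difference of 1 or more on the log2 scale, while those of the other 5 do not.

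The members together took 41.7 and 43.9 CPM (reads scaled to a common library total) with DMSO and 6.02 and 5.81 with ABBV-075 in GFP cells, and 157 and 189.9 with DMSO and 27.2 and 22.5 with ABBV-075 in HNF4G cells. Since UGT2B15 supplied most of these reads, the sum followed UGT2B15. Per kilobase, UGT2B15 made up 75.4% ± 2.07 of the family in GFP-DMSO, 74.8% ± 0.0130 in GFP-ABBV-075, 80.7% ± 0.450 in HNF4G-DMSO and 79.8% ± 1.19 in HNF4G-ABBV-075 (SD, n = 2 for each).

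UGT2B11, UGT2B10 and UGT2B4 came next. UGT2B11 made up 3.20% ± 0.912 of the family in GFP-DMSO, 10.5% ± 0.848 in GFP-ABBV-075, 2.25% ± 0.189 in HNF4G-DMSO and 7.36% ± 0.315 in HNF4G-ABBV-075. UGT2B10 went the other way, with 9.21% ± 0.818, 4.04% ± 2.13, 11.3% ± 0.720 and 6.86% ± 0.625 in the same order. UGT2B4 held more of the family in GFP cells, with 9.73% ± 0.364 under DMSO and 6.21% ± 1.42 under ABBV-075, than in HNF4G cells, with 3.74% ± 0.430 and 3.25% ± 0.202. The group means of UGT2B7 (0.761% to 1.20%) and UGT2B17 (0.620% to 1.10%) rested on few reads, with an SD of up to 0.863 and 1.56. UGT2B28, also of few reads, made up 1.07% and 0.687% with DMSO and 1.18% and 3.14% with ABBV-075 in GFP cells, and 0.227% and 0.248% with DMSO and 1.51% and 1.22% with ABBV-075 in HNF4G cells. All 4 ABBV-075 libraries lay above all 4 DMSO libraries, but only narrowly, since the 1.18% rested on 2 reads, whereas those of UGT2B11 stood well apart.

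**Figure D3:**
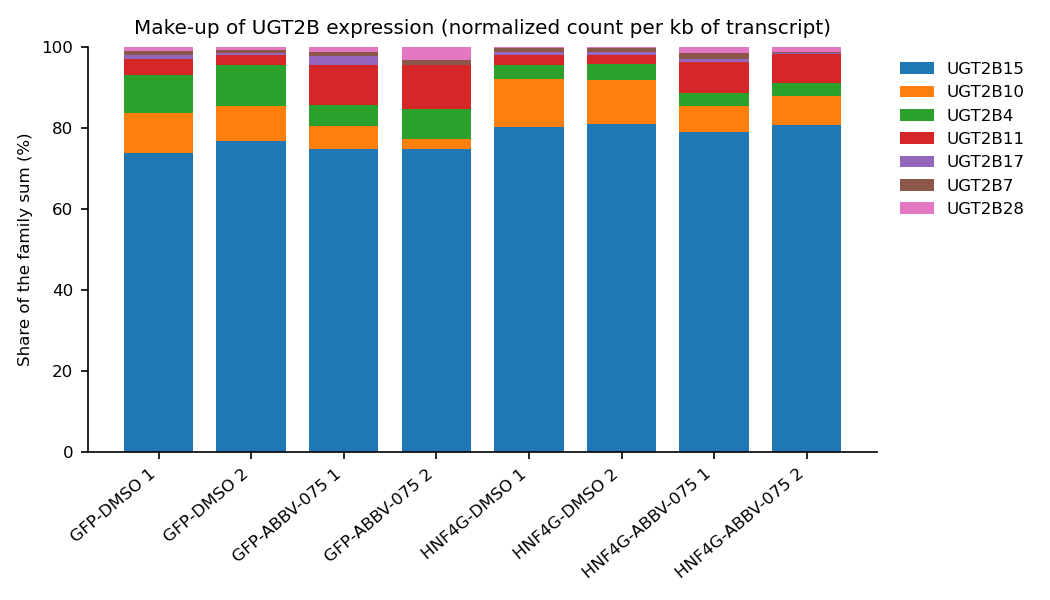
Share of the summed UGT2B expression (vertical axis, %, from normalized counts per kilobase of the longest transcript) taken by each gene (colours) in each of the 8 libraries (bars). UGT2B15 takes 73.9% to 81.0% of every bar, and the UGT2B11 segment is wider in the 4 ABBV-075 libraries, 7.14% to 11.1%, than in the 4 DMSO libraries, 2.12% to 3.85%.

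Ratios to UGT2B15 within each library largely restate these shares, since UGT2B15 made up most of each sum. Like the shares, they need no scale between libraries. The normalized count of UGT2B11 was 5.14% and 3.28% of that of UGT2B15 with DMSO and 13.0% and 14.6% with ABBV-075 in GFP cells, and 2.93% and 2.58% with DMSO and 9.48% and 8.73% with ABBV-075 in HNF4G cells. All 4 ABBV-075 libraries were above all 4 DMSO libraries. The log2 ratio was 1.77 higher under ABBV-075 in GFP cells and 1.74 higher in HNF4G cells, with an exact two-sided permutation of treatment within each line giving p = 0.0556, the smallest that its 36 arrangements allow, and 0.0667 after adjustment over 6 such ratios. The log2 ratio of UGT2B10 to UGT2B15 changed by -1.16 in GFP cells and -0.70 in HNF4G cells under ABBV-075, and that of UGT2B4 differed by -1.48 under DMSO and -1.06 under ABBV-075 in HNF4G cells less GFP cells, each also at the smallest permutation p of 0.0556 (adjusted 0.0667). Between lines the ratios of UGT2B10 (0.43 as the mean over both treatments) and UGT2B11 (-0.62) had that p as well, while under the drug that of UGT2B4 (-0.35 as the mean over both lines) had an exact permutation p of 0.111 (adjusted 0.111). None of the 6 could pass 0.05 in this design, and these ratio tests were not among those planned. A ratio shows unequal change, not which of the 2 genes moved.

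Over the 8 libraries the members moved together to different degrees. Pearson's r of log2(normalized count + 1) was 0.990 for UGT2B10 and UGT2B15, 0.936 for UGT2B11 and UGT2B15 and 0.921 for UGT2B4 and UGT2B15, and it was lowest, 0.559, for UGT2B17 and UGT2B28. Among tested genes with a symbol, those most like UGT2B15 were CDH17 (r = 0.998), a cadherin of intestine and liver, GLIS3 (0.997), PRXL2A (0.997), DTX4 (0.997) and MOB3B (0.997). CDH17 had 194 and 197 normalized counts with DMSO and 26.4 and 20.8 with ABBV-075 in GFP cells, and 820.3 and 926 with DMSO and 131 and 88.5 with ABBV-075 in HNF4G cells, the same order of groups as UGT2B15. Those most like UGT2B10 were HNMT (r = 0.998), which methylates histamine, AK7 (0.994), MGAT4C (0.994), LAMB1 (0.994), a laminin chain, and ARNT2 (0.994). These are descriptions over libraries of 4 groups, which share the treatment and line differences, and 334 genes had r above 0.95 with UGT2B15 and 343 with UGT2B10.

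Between the first and the last member, 38 further genes are annotated, 35 of them pseudogenes. None reached the minimum for testing, and 23 were at 0 in every library. The highest was UGT2B27P, a pseudogene between UGT2A3 and UGT2B7, with 7.74 and 8.08 normalized counts with DMSO and 0 and 0 with ABBV-075 in GFP cells, and 32.0 and 22.5 with DMSO and 4.85 and 4.12 with ABBV-075 in HNF4G cells. Of the 50-base windows of the UGT2B10 transcript, 286 also occur in UGT2B27P. UGT2A3, a glucuronosyltransferase of the neighbouring subfamily, had 1.94 and 3.03 normalized counts with DMSO and 0 and 0 with ABBV-075 in GFP cells, and 18.4 and 23.3 with DMSO and 0 and 1.03 with ABBV-075 in HNF4G cells, so its HNF4G-DMSO libraries stood above the rest. A value of 0 in the GFP-ABBV-075 libraries allows up to 3.31 and 3.46 normalized counts, counting error only. UGT2B24P, UGT2B25P and UGT2B26P had means of 0.774, 1.23 and 0.

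The nearest tested genes lay well outside. On the low side, 160.668 kb away, MT2P1, a processed metallothionein pseudogene, had 4.84 and 2.02 normalized counts with DMSO and 24.2 and 17.3 with ABBV-075 in GFP cells, and 4.85 and 1.73 with DMSO and 14.6 and 24.7 with ABBV-075 in HNF4G cells. It reached the minimum through its ABBV-075 libraries, so its higher values there are a description. On the high side, 669.711 kb away, ODAM, which encodes an ameloblast-associated protein, had 55.2 and 52.5 normalized counts with DMSO and 7.71 and 0 with ABBV-075 in GFP cells, and 32.0 and 35.4 with DMSO and 0 and 2.06 with ABBV-075 in HNF4G cells. It reached the minimum through its DMSO libraries, so that its lower values with the drug are a description too. Neither was called between the lines, where under DMSO MT2P1 had a log2 change of -0.07 (SE 0.55, adjusted p = 0.962) and ODAM of -0.66 (SE 0.94, adjusted p = 0.756).

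Of 15 other UDP-glycosyltransferases listed, 13 were in the table and 4 were tested. UGT1A1, the bilirubin-conjugating enzyme, had 127 and 142 normalized counts with DMSO and 26.4 and 25.4 with ABBV-075 in GFP cells, and 128 and 127 with DMSO and 22.3 and 23.7 with ABBV-075 in HNF4G cells. It fell under the drug with a log2 change of -2.33 (SE 0.18, adjusted p = 9.91e-05) in GFP cells and -2.42 (SE 0.18, adjusted p = 0.000105) in HNF4G cells. Its values in the 2 lines overlapped under DMSO and lay close together, without overlap, under ABBV-075, while those of UGT2B15 stood further apart under both. UGT1A genes share their last exons, so the split of reads among them is uncertain. UGT8, which makes galactosylceramide, fell in GFP cells with -0.49 (SE 0.13, adjusted p = 0.0201). Thus 2 of 4 fell in GFP cells, beside 19.2% of all tested genes, and none was called between the lines, where 0.783% of all tested genes were called higher and 0.117% lower under DMSO and 1.64% and 0.336% under ABBV-075. UGT3A1 and UGT3A2, counted among the 4, reached the minimum through HNF4G-DMSO.

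The list for the sugar donor held 4 genes of its supply, with UGDH, which makes UDP-glucuronate, among them, and GUSB, which hydrolyses glucuronides. None of the 5 was called in GFP cells under the drug, where 19.2% of all tested genes were called lower, and 2 fell in HNF4G cells (18.3%), UGP2, which makes UDP-glucose, with -0.47 (SE 0.12, adjusted p = 0.0241) and SLC35B1, a nucleotide transporter, with -0.28 (SE 0.09, adjusted p = 0.0477). None was called between the lines, where at most 1.64% of all tested genes were called in either direction. In HNF4G-ABBV-075 against GFP-DMSO 3 were called, beside 16.0% higher and 18.8% lower of all tested genes, SLC35D1, a transporter of UDP-glucuronate, higher with 0.71 (SE 0.14, adjusted p = 0.00642), and UGP2 and SLC35B1 lower with -0.39 (SE 0.12, adjusted p = 0.0409) and -0.49 (SE 0.09, adjusted p = 0.00529). The median log2 change of the 5 was -0.13 in GFP and -0.09 in HNF4G cells under the drug.

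Sulfation is the other main route of steroid conjugation, and of 8 listed genes 5 were tested. SULT1A1, a phenol sulfotransferase with near-identical copies, fell with -1.27 (SE 0.19, adjusted p = 0.00202) in GFP cells and -1.35 (SE 0.19, adjusted p = 0.00169) in HNF4G cells. PAPSS2, which makes the sulfate donor, fell in GFP cells with -0.80 (SE 0.18, adjusted p = 0.0110). In all, 2 of 5 fell in GFP cells, where 19.2% of all tested genes did, and none was called between the lines (at most 1.64% of all in either direction). In HNF4G cells 2 of 4 fell (18.3% of all), leaving out SULT2B1, a hydroxysteroid sulfotransferase with 19.4 and 12.1 normalized counts with DMSO and 5.51 and 8.07 with ABBV-075 in GFP cells, and 28.1 and 19.0 with DMSO and 4.85 and 6.18 with ABBV-075 in HNF4G cells, which reached the minimum through HNF4G-DMSO.

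**Figure D4:**
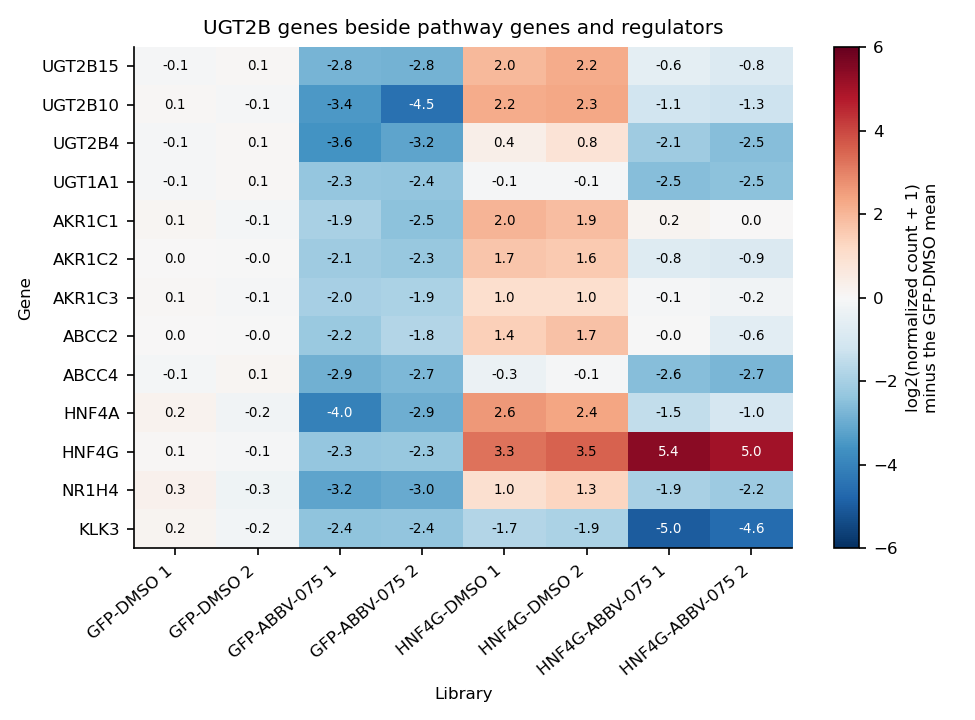
Log2(normalized count + 1) of 13 genes (rows) in each of the 8 libraries (columns), less the mean of the 2 GFP-DMSO libraries (colour scale). UGT2B15 runs from -2.82 in GFP-ABBV-075 to 2.21 in HNF4G-DMSO and AKR1C1 from -2.46 to 2.05, UGT1A1 lies between -2.54 and -2.30 in all 4 ABBV-075 libraries, and HNF4G lies between 3.28 and 5.40 in all 4 HNF4G libraries.

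Of 19 enzymes that make or use androgen substrates 11 were tested, and under ABBV-075 5 fell in GFP cells, beside 19.2% of all tested genes. In HNF4G cells it was 5 of 10, beside 18.3%, without AKR1C4, which reached the minimum through HNF4G-DMSO. AKR1C1, AKR1C2 and AKR1C3, aldo-keto reductases of steroids, fell in both lines and were the 3 genes of the list called higher in HNF4G cells, under DMSO (0.783% of all tested genes) and under ABBV-075 (1.64%). AKR1C2 had 615 and 581 normalized counts with DMSO and 137 and 122 with ABBV-075 in GFP cells, and 1898 and 1789 with DMSO and 347 and 326 with ABBV-075 in HNF4G cells, the order of groups seen for UGT2B15. Its log2 change was -2.20 (SE 0.12, adjusted p = 2.84e-05) under the drug in GFP cells and -2.45 (SE 0.12, adjusted p = 2.55e-05) in HNF4G cells, and 1.62 (SE 0.12, adjusted p = 0.00159) between lines under DMSO. AKR1C1 was higher in HNF4G cells by 1.96 (SE 0.20, adjusted p = 0.00430) under DMSO, and AKR1C3 by 1.80 (SE 0.10, adjusted p = 0.000265) under ABBV-075. The AKR1C genes are close copies, so their split of reads is uncertain. HSD3B7, an enzyme of bile acid synthesis, was lower in HNF4G-ABBV-075 than in GFP-DMSO with -1.69 (SE 0.20, adjusted p = 0.000716).

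Of 11 transporters of glucuronides 8 were tested, and 6 fell in GFP cells under ABBV-075 with a median log2 change of -1.58, where 19.2% of all tested genes fell and their median was -0.01. In HNF4G cells 4 of 7 fell, with a median of -1.28 beside 18.3% and 0.02 for all, without ABCC3, which reached the minimum through HNF4G-DMSO. ABCC4, an efflux pump, had 302 and 359.6 normalized counts with DMSO and 44.1 and 49.6 with ABBV-075 in GFP cells, and 259.9 and 316 with DMSO and 54.4 and 48.4 with ABBV-075 in HNF4G cells, and its log2 change was -2.79 (SE 0.18, adjusted p = 5.24e-05) and -2.46 (SE 0.18, adjusted p = 0.000105) under the drug in GFP and HNF4G cells. ABCC2, which exports glucuronides into bile, was higher in HNF4G cells by 1.59 (SE 0.24, adjusted p = 0.0252) under DMSO and 1.68 (SE 0.24, adjusted p = 0.0129) under ABBV-075. ABCC3, another exporter, had 7.74 and 7.07 normalized counts with DMSO and 3.31 and 2.31 with ABBV-075 in GFP cells, and 45.6 and 33.7 with DMSO and 6.79 and 9.26 with ABBV-075 in HNF4G cells, with a mean of 6.08 over the groups other than HNF4G-DMSO. SLCO2B1, an uptake carrier of steroid conjugates, was higher there by 3.74 (SE 0.44, adjusted p = 0.00589) under ABBV-075, and in HNF4G-ABBV-075 against GFP-DMSO it was higher by 1.53 (SE 0.44, adjusted p = 0.0303), while ABCC4, ABCG2 and SLCO1A2 were lower, 1 higher and 3 lower of 8 beside 16.0% and 18.8% of all tested genes.

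HNF4G itself checks the labels. It had 1088 and 993 normalized counts with DMSO and 206 and 213 with ABBV-075 in GFP cells, and 10109.5 and 12104 with DMSO and 43972 and 34116 with ABBV-075 in HNF4G cells, in which the transgene and the cell's own gene are counted together. Its log2 change was -2.30 (SE 0.15, adjusted p = 5.27e-05) under the drug in GFP cells and 1.81 (SE 0.15, adjusted p = 0.000155) in HNF4G cells, and 3.41 (SE 0.15, adjusted p = 0.000234) between lines under DMSO. In HNF4G cells HNF4G RNA was thus higher under ABBV-075 while UGT2B15 and UGT2B10 were lower.

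Of 20 transcription factors known to act on UGT2B genes, 15 were tested. Under the drug 5 fell and 2 rose in GFP cells, where 19.2% of all tested genes were called lower and 14.2% higher. In HNF4G cells 3 of 14 fell and 3 rose, HNF4G with its transgene among the latter, beside 18.3% and 12.9%, without HNF4A, which reached the minimum through HNF4G-DMSO, so the shares of the list lie near those of all genes there. HNF4A, the relative of HNF4G best known from liver, had 18.4 and 13.1 normalized counts with DMSO and 0 and 1.15 with ABBV-075 in GFP cells, and 101 and 84.7 with DMSO and 4.85 and 7.20 with ABBV-075 in HNF4G cells. In both lines the libraries with the drug lay below those with DMSO, with no overlap. HNF4A fell with -3.50 (SE 0.46, adjusted p = 0.00104) in GFP cells, and its mean over the groups other than HNF4G-DMSO was 7.46. NR1H4, the bile acid receptor, fell with -3.10 (SE 0.23, adjusted p = 9.93e-05) in GFP cells and -3.17 (SE 0.23, adjusted p = 0.000113) in HNF4G cells. FOXA1, which opens chromatin for other factors in prostate, rose with 0.52 (SE 0.07, adjusted p = 0.00149) and 0.58 (SE 0.07, adjusted p = 0.00103), and AHR, the dioxin receptor, in GFP cells with 0.90 (SE 0.16, adjusted p = 0.00383).

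Androgen-induced genes were set beside the family, since androgen is known to lower UGT2B15 and UGT2B17. All 8 listed were tested, and under the drug 3 fell and 2 rose in GFP cells, where 19.2% of all tested genes fell and 14.2% rose, and 4 fell and 2 rose in HNF4G cells, where 18.3% fell and 12.9% rose. KLK3, which encodes PSA, fell with -2.40 (SE 0.17, adjusted p = 8.55e-05) and -3.01 (SE 0.17, adjusted p = 4.26e-05) in GFP and HNF4G cells, while SLC45A3, a prostate solute carrier, rose with 0.98 (SE 0.15, adjusted p = 0.00200) and 0.97 (SE 0.15, adjusted p = 0.00221). Between lines 2 of the 8 were lower and none higher under DMSO (0.117% and 0.783% of all tested genes), and 4 were lower and 1 higher under ABBV-075 (0.336% and 1.64%). KLK3 was lower in HNF4G cells, with -1.81 (SE 0.17, adjusted p = 0.00430) under DMSO and -2.41 (SE 0.17, adjusted p = 0.000583) under ABBV-075. TMPRSS2, a serine protease, was higher in HNF4G cells under ABBV-075 by 1.04 (SE 0.10, adjusted p = 0.00215).

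Markers of other cell types were read as summed normalized counts. All 9 prostate luminal markers used had a mean of at least 10, with sums of 118981 to 119448 in GFP-DMSO, 117600 to 119638 in GFP-ABBV-075, 83301 to 96299.8 in HNF4G-DMSO and 93771 to 107189 in HNF4G-ABBV-075, so that the HNF4G libraries lay below the GFP libraries without overlap. Of 6 hepatocyte markers 3 did, and the sum, nearly all ALB, was 11715 to 12438 in GFP-DMSO, 3369 to 3411 in GFP-ABBV-075, 24373 to 28896 in HNF4G-DMSO and 8375 to 10093 in HNF4G-ABBV-075, the order of groups of UGT2B15. TTR had 26.1 and 21.2 with DMSO and 6.61 and 9.23 with ABBV-075 in GFP cells, and 119 and 89.9 with DMSO and 45.6 and 42.2 with ABBV-075 in HNF4G cells. It was thus higher in HNF4G-ABBV-075 than in GFP-DMSO, unlike ALB, and did not follow that order. CPS1, with 172 to 276 over the 8 libraries, did not follow it either, while APOB, SERPINA1 and CYP3A4 stayed at or under 2.91. Of 6 enterocyte markers VIL1 and SI had a mean of at least 10, and ALPI and CDX1 were at 0. The sums, nearly all VIL1, were 3063 to 3326, 606 to 607, 4549 to 4753 and 2779 to 2887 in that order of groups. In HNF4G-ABBV-075 VIL1, with 2747 and 2874, was near its GFP-DMSO values of 3181 and 2883. SI went otherwise, with 30.1 and 13.4 there against 145 and 180 in GFP-DMSO, and overlapped its GFP-ABBV-075 values of 17.6 and 12.7. Of 6 stromal markers 5 had a mean of at least 10, with sums of 1576 to 1605, 413 to 430.2, 1284 to 1310.2 and 364 to 375. Of 5 immune markers 1 did, with sums of 25.2 to 42.4 and CD3E at 0, and none of 4 endothelial markers, with sums up to 2.91 and CDH5 at 0. The part of these markers in the UGT2B results was not tested.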

How the data were processed

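Poly-A RNA was sequenced as read pairs of 100 bases and, per the labels, aligned by the authors to hg38 with STAR 2.6, while the methods of the study give another version. How genes were counted, with which strand setting and annotation, is not given in the sources used here. Per the file, the deposited signal is a normalized count. Every value was a whole multiple of 1 step in its library (100% within 0.01), which gave back whole reads, 31508275 to 40262678 a library. Of 57605 rows 2 repeated an identifier and were dropped.

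Log2(normalized count + 1) of the 17876 genes averaging 10 or more was fitted with limma 3.58.1 (R 4.3.3), as 4 group means with an intensity trend, two-sided, with calls at a Benjamini-Hochberg adjusted p under 0.05. This scale understates changes of low genes, and values are relative to the library, with no spike-in used here. UGT2B28 comes from the fit with no filter. The rule for named genes took the members, HNF4G, the called genes of largest rise and fall in each list (up to 2 each per comparison), the cluster's genes and flanks, and the 5 genes most correlated with UGT2B15 and with UGT2B10. Only part of those it gives are printed, and some items, left out of the lists and their counts, are not reported here. Members and lists were chosen with earlier results of these data known.

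Alternatives were other pseudocounts, filters, scalings and spreads, edgeR 4.0.16 and DESeq2 1.42.0 on the whole reads, a correction for GC content and length, a replicate block and leaving libraries out. The fit was run on simulated data with known changes, placed in the GFP-ABBV-075 group and in genes of higher mean than UGT2B7, UGT2B17 and UGT2B28. That run does not tell how the fit does for genes as low as these. Replicate numbers were not taken as pairs: in pairs of groups, the deviations of same-numbered libraries correlated at -0.59 to 0.13. Coding identity replaced the planned protein identity.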

Additional observations from a re-analysis of the deposited data

Results flagged for a closer look

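HNF4G RNA responded to ABBV-075 in opposite directions in the 2 lines. The difference between its log2 changes was 4.11 (SE 0.21, adjusted p = 0.000814, limma), with a fall in GFP cells and a rise in HNF4G cells, where the transgene and the cell's own gene are counted together and their parts were not tested. Groups of 2 libraries are too small for a check on single libraries far from the rest.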

How the results depend on the processing

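No called change of a member turned its direction under the alternatives run. With a mean of at least 100 required, 3 members were called lower under ABBV-075 in HNF4G cells, where the filter leaves out UGT2B7, UGT2B11 and UGT2B17. UGT2B7 and UGT2B17, tested through HNF4G-DMSO, are among the counts below. Leaving out 1 library at a time, the count of lower members under ABBV-075 ran from 3 to 5 in GFP cells and 3 to 6 in HNF4G cells, that of higher members in HNF4G cells from 1 to 4 under DMSO and 2 to 4 under ABBV-075, and that of lower members in HNF4G-ABBV-075 against GFP-DMSO from 1 to 4. With the replicate block the 5 counts were 5, 6, 2, 2 and 3 in that order: UGT2B17 was then called in GFP cells under the drug (adjusted p = 0.0483) and UGT2B11 lost between lines (0.0843 and 0.0549). With the numbers of HNF4G-ABBV-075 crossed, chosen after seeing the data, 6 members were called lower in HNF4G cells and 3 against GFP-DMSO. With only the libraries compared the counts were 6, 6, 4, 2 and 3.

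Over all genes, calls between lines (21 lower and 140 higher under DMSO, 60 and 293 under ABBV-075) were 10 and 98, and 23 and 188, with no filter, 5 and 67, and 19 and 149, with the replicate block, and 54 and 224, and 84 and 321, by DESeq2. Calls without the 2 libraries of low GC content are not used, since too few libraries remain in the HNF4G groups. Of 56 shares of the family under other lengths, 22 moved by more than the spread between libraries (scaling by library reads cancels within a library). With 50-base windows the shared sequence rose to 3.17% for UGT2B4, 6.74% for UGT2B7, 22.0% for UGT2B10, 47.8% for UGT2B11, 27.1% for UGT2B15, 23.3% for UGT2B17 and 35.2% for UGT2B28. Depth limits UGT2B7, UGT2B17 and UGT2B28, which had 4, 5 and 7 reads in all in GFP-ABBV-075.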
